A study of Mus musculus with 10 samples.

Results

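Voltage-gated sodium channels carry the action potential along the muscle fiber, and 5 genes of their subunits were followed in skeletal muscle without desmin. These were the genes of the pore-forming α subunits Scn4a and Scn7a and of the accessory β subunits Scn2b, Scn3b and Scn4b. They were taken by gene symbol from a table of 54232 genes, and all 5 were found and lay above the expression limit used for testing. RNA had been sequenced from calf muscle of 5 mice with the genotype Des -/- and of 5 mice with the genotype Des wt/wt. The labels name the gastrocnemius, whereas the study also speaks of the plantaris, a neighboring calf muscle, so the libraries may hold RNA of both. Both groups carry the strain name B6J.129Sv-Destm1Cba/Cscl, and the methods describe wild-type littermates and an age of 3 months. The targeted allele is carried in the germline, so that desmin, the main intermediate filament protein of muscle, is missing from all cells that make it and throughout development. The methods mention that RNA of the muscles was pooled, whereas the deposited table gives every mouse its own column, which was taken as 1 replicate. In bulk RNA, fewer cells of a type and less RNA per cell cannot be told apart.

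An α subunit forms the pore, senses the voltage and closes again within milliseconds, and a β subunit is a single-pass membrane protein that adjusts gating and binds adhesion molecules. In adult skeletal muscle the α subunit is encoded by Scn4a, and the channels are concentrated at the neuromuscular junction (NMJ), where they turn the endplate potential into an action potential. Mutations of this gene in man are known to cause myotonia, periodic paralysis and a myasthenic syndrome.

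The sequences before the start sites of the subunit genes that fell, Scn4a and Scn4b, and of the related α subunit gene that rose most, Scn2a, are shown to let the regulatory stretch of each be read beside its values. They are the 250 bases before the RefSeq transcript start on GRCm38.p6, written 5′ to 3′ on the strand of the gene. The window of Scn4a is chr11:106349391-106349640 on the reverse strand, that of Scn4b is chr9:45138374-45138623 on the forward strand, and that of the first Scn2a start is chr2:65620519-65620768 on the forward strand. Capitals mark the E-box CANNTG, the motif that myogenic factors such as myogenin bind, which reads alike on both strands.
Scn4a: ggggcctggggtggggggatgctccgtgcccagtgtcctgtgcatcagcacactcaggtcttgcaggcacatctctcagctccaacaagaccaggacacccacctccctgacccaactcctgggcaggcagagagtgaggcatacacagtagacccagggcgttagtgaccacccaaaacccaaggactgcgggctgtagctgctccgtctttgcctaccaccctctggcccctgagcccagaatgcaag
Scn4b: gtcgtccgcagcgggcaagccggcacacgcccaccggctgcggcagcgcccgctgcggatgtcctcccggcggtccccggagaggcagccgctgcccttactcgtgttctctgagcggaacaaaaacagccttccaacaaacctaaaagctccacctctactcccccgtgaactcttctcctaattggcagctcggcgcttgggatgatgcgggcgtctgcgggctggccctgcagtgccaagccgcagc
Scn2a: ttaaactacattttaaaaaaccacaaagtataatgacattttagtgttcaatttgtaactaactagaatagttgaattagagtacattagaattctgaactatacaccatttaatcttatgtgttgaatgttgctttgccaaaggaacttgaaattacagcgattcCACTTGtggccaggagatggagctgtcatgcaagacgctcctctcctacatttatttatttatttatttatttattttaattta
The E-box was found 0 times in the Scn4a and Scn4b windows and 1 time in that of Scn2a. The windows of Scn7a and Scn2b, not shown, held 1 and 2, and that of a second Scn2a start (53.2% G and C) held 0. Among all 32851 RefSeq promoter windows of this length, 66.2% hold at least 1 E-box, with a median of 1. The windows of Scn4a and Scn4b are rich in G and C (61.6% and 66.0%), and that of the first Scn2a start holds 29.6%. An entry was found for 4 of the 5 subunit genes. The RefSeq start of Scn4a lies within the longer span that GENCODE gives the gene, so its window lies inside that span. Most of the Scn4b window also lies inside its GENCODE gene, which starts at 45138395. The windows of Scn7a and Scn2b reach into their GENCODE genes in part, and that of the second Scn2a start lies within its gene. These windows are thus not purely upstream of the genes as GENCODE gives them.

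The values are regularized log (rlog) values, which the authors made with DESeq2, on a log2 scale. They correct for library size, and a gene's values are shrunk towards its average, which makes differences smaller than in counts, above all for weakly expressed genes. The depth of each library is unknown from such values. A gene is said to rise or fall where limma gave an adjusted p under 0.05 over the 14289 tested genes. Des itself lay between 16.10 and 17.74 in the wild-type libraries and between 11.76 and 11.89 in the knock-out libraries, which matches the labels. The values of wild-type mouse 3 summed, after conversion from log2, to 1.48 times the median of the mice, compared with 0.949 to 1.06 times in the others. All 4 Y-linked transcripts looked at were expressed in each of the 10 mice.

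Of the 5 subunit genes, 2 fell in desmin knock-out muscle, Scn4a and Scn4b, and 0 rose, in a comparison in which 5.99% of all tested genes fell and 7.70% rose (limma, adjusted p under 0.05, 13.7% in all). The same genes, Scn4a and Scn4b, had knock-out values that all lay below the wild-type values, which held for 6.97% of the tested genes. For Scn7a, Scn2b and Scn3b the genotypes overlapped. The median difference of the 5 genes was -0.25, compared with -0.0029 over all tested genes, and was -0.19 without wild-type mouse 3.

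**Figure D1:**
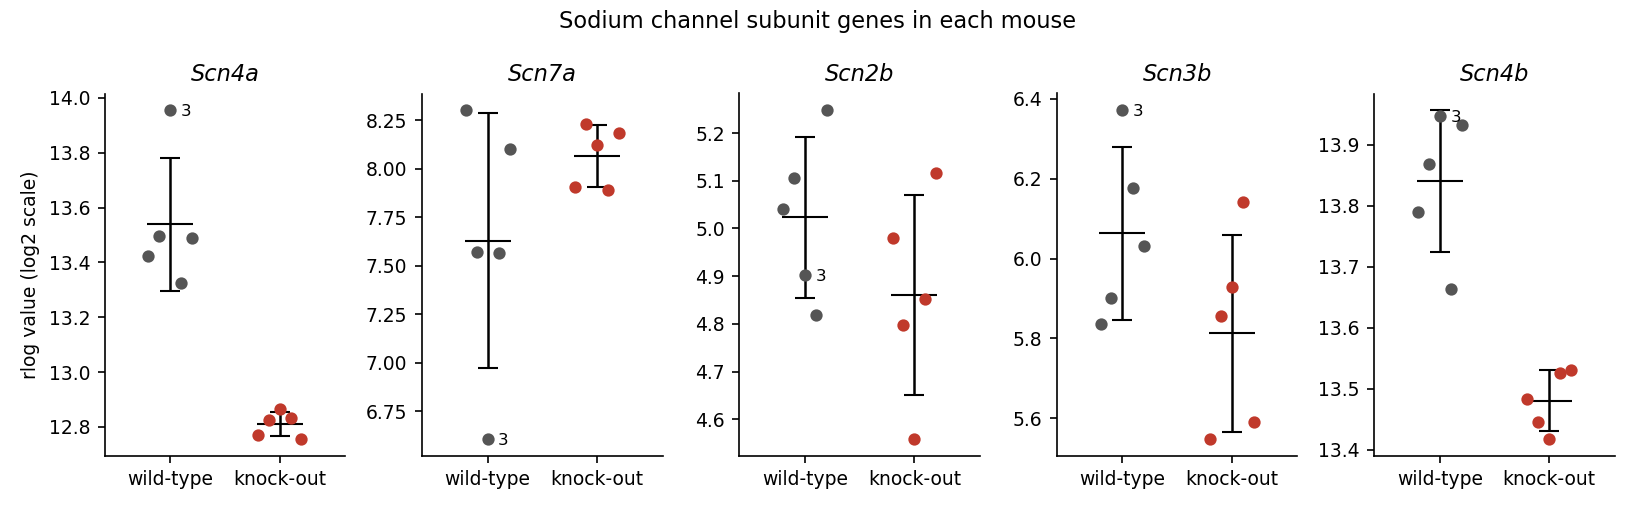
rlog values (log2 scale) of the 5 subunit genes in wild-type (grey) and desmin knock-out (red) mice, each point being 1 mouse and the bars the mean ± SD of 5 mice, with wild-type mouse 3 marked by its number and a separate scale for each gene. The genotypes are separated for Scn4a (12.76 to 12.86 against 13.32 to 13.96) and Scn4b (13.42 to 13.53 against 13.66 to 13.95) and overlap for the others.

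Scn4a (ENSMUSG00000001027) lies on the reverse strand of chromosome 11 of GRCm38 from 106318592 to 106353288. In wild-type mice 1 to 5 its rlog values were 13.42, 13.50, 13.96, 13.32 and 13.49. In desmin knock-out mice 1 to 5 they were 12.77, 12.83, 12.86, 12.83 and 12.76. All 5 knock-out mice lay below the lowest wild-type mouse, and the knock-out mice were close to each other. Knock-out mice had a mean of 12.81 ± 0.05 (SD, n = 5), against 13.54 ± 0.24 (SD, n = 5). Scn4a thus fell by 0.73 log2 units with a standard error of 0.11 (limma, adjusted p = 7.2e-04), to 0.604 times the wild-type level on the rlog scale. The highest wild-type value belonged to mouse 3, and without it the difference was -0.62 and the gene still fell. In wild-type muscle the mean rlog value of Scn4a exceeded that of 97.4% of the tested genes.

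Genes of the muscle fiber were read beside Scn4a. Of 11 myofiber genes, all tested, 1 rose, Actn2 (0.83), and 0 fell (limma), with a median difference of 0.11. Over all tested genes 7.70% rose and 5.99% fell. Without wild-type mouse 3, 4 rose and 1 fell, with a median of 0.025. With all mice, the mean was lower in knock-out muscle for 5 of the 11 genes and higher for 6. Acta1, the skeletal actin (-0.42), Ckm, the muscle creatine kinase (-0.59), and Ryr1, the calcium release channel (-0.48), were lower but did not pass (limma). For Ckm and Ryr1 all knock-out values lay below the wild-type values, which held for 6.97% of the tested genes. The summed level of the 11 genes (2 to the power of the rlog value) ranged from 2791700 to 2992700 in knock-out mice. In wild-type mice it ranged from 2932700 to 5614200, or up to 3490200 without wild-type mouse 3. Most of this sum was Acta1 and Ckm, with mean rlog values of 19.9 and 19.5 in knock-out and 20.3 and 20.1 in wild-type mice. The sum thus mainly shows Acta1 and Ckm and not the list as a set. Of 9 endothelial genes, 4 fell, against 5.99% of all tested genes, and 0 rose (limma), with a median of -0.35. When wild-type mouse 3 was left out, 3 of them fell, with a median of -0.31. Of the macrophage genes 0 of 9 passed, and of the adipocyte genes 0 of 5, where 13.7% of all tested genes did. The part of fiber content and of these cells in the fall of Scn4a was not tested.

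Scn4b (ENSMUSG00000046480), which encodes a β subunit that is linked to the α subunit by a disulfide bond, lies on the forward strand of chromosome 9 from 45138395 to 45154152. In wild-type mice 1 to 5 the rlog values were 13.79, 13.87, 13.95, 13.66 and 13.93. In knock-out mice 1 to 5 they were 13.48, 13.44, 13.42, 13.52 and 13.53. The groups did not overlap here either, with a narrower gap than for Scn4a. Scn4b fell by 0.36 log2 units with a standard error of 0.09 (limma, adjusted p = 0.0151), to 0.779 times the wild-type level. After quantile normalization the difference was -0.27 with an adjusted p of 0.0576 (limma), and after median centring it was -0.40 with an adjusted p of 0.0138 (limma).

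Scn4a fell more than Scn4b. The difference between the rlog values of both genes within a mouse (Scn4a minus Scn4b) averaged -0.67 ± 0.09 (SD, n = 5) in knock-out mice and -0.30 ± 0.18 (SD, n = 5) in the wild-type. Knock-out values from -0.78 to -0.55 all lay below the wild-type values from -0.44 to 0.0094, and a two-sided exact permutation test gave p = 0.00794, the smallest that 5 mice against 5 allow (0.0238 after adjustment over the 3 pairs computed, of which the other 2 are not reported here). Without wild-type mouse 3 the groups differed by -0.29 (exact permutation test, p = 0.00794). The pairs were chosen after the values had been seen.

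Scn7a (ENSMUSG00000034810), on the reverse strand of chromosome 2 from 66673425 to 66784914, encodes an atypical α subunit that responds to sodium concentration rather than to voltage and is known from glia, Schwann cells included. Its rlog values were 8.30, 7.57, 6.61, 7.57 and 8.10 in wild-type mice 1 to 5. They were 7.90, 8.23, 8.12, 7.89 and 8.18 in knock-out mice 1 to 5. The wild-type mice spread widely around the knock-out mice, with mouse 3 lowest and mouse 1 highest of all 10. The log2 difference of 0.44 had a 95% interval from -0.097 to 0.97 (limma, adjusted p = 0.277) and was 0.18 without wild-type mouse 3.

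Genes of Schwann cells, in which Scn7a is known, and of fibroblasts were compared in the same libraries. Over all tested genes 7.70% rose and 5.99% fell. Of 15 Schwann cell genes, 13 were tested, of which 1 rose and 1 fell (limma), with a median difference of 0.0089, or 0.058 when wild-type mouse 3 was left out. Ngfr and Gfap, markers of the non-myelinating kind, lay below the expression limit, whereas L1cam, which that kind also makes, was tested. The riser was Egr2 (1.02), a factor of myelination that muscle also makes as an early response gene, and the faller was L1cam (-0.43), an adhesion molecule. Their summed level ranged from 2193 to 2923 in knock-out and from 1802 to 3062 in wild-type mice. Of 10 fibroblast genes, 5 rose and 0 fell (limma), or 3 rose and 1 fell without wild-type mouse 3. Their summed level ranged from 31131 to 42897 in knock-out and from 21039 to 42199 in wild-type mice, or from 28352 without mouse 3. Most of this sum was Gsn and Dcn, which did not pass (limma, adjusted p = 0.602 and 0.314). Their mean rlog values were 14.13 and 12.93 in knock-out and 13.96 and 12.53 in wild-type mice. The sum thus mainly shows Gsn and Dcn and not the genes that rose. The part of these cells in the Scn7a values was not tested.

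Scn2b (ENSMUSG00000070304) and Scn3b (ENSMUSG00000049281) had lower levels than Scn4b and did not pass the test. Scn2b encodes the β subunit that, like that of Scn4b, is bound to the α subunit by a disulfide bond, and that of Scn3b is bound without one. Scn2b ranged from 4.82 to 5.25 in wild-type and from 4.56 to 5.12 in knock-out mice. Its log2 difference was -0.16 with a 95% interval from -0.44 to 0.12 (limma, adjusted p = 0.448). Scn3b lay between 5.84 and 6.37 in wild-type and between 5.55 and 6.14 in knock-out mice. The difference of Scn3b was -0.25, with an interval from -0.56 to 0.062 (limma, adjusted p = 0.287). For both, 2 of 5 knock-out mice lay below all wild-type mice, and the intervals include no difference as well as falls as large as that of Scn4b.

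Scn2b and Scn4b are neighbors on chromosome 9, on the same strand and 8.32 kb apart, Scn2b spanning 45117782 to 45130070. Scn3b lies on the same strand of that chromosome from 40269217 to 40291618. Of this trio, Scn4b fell and the others did not pass. An antisense gene of GENCODE M21 overlaps Scn2b (Gm10684) and another overlaps Scn3b (Gm47266). The strand setting of the counting is not given in the sources used here, so reads of these overlaps cannot be assigned with certainty.

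Other sodium channel genes were taken from a list of 8, of which 2 reached the expression limit. Both of these, the α subunit genes Scn2a and Scn3a, rose in desmin knock-out muscle (limma, adjusted p under 0.05), against 7.70% of all tested genes that rose. Without knock-out mouse 1, 2, 4 or 5, or without wild-type mouse 1, the count was 1, Scn2a.

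Scn2a (ENSMUSG00000075318), best known as an α subunit gene of the brain, lies on the forward strand of chromosome 2 from 65620771 to 65767447. Its rlog values were 6.70, 6.74, 6.23, 6.83 and 7.05 in wild-type mice 1 to 5. In knock-out mice 1 to 5 they were 8.77, 8.30, 8.12, 8.61 and 8.62. Every knock-out mouse lay more than 1 log2 unit above the highest wild-type mouse. Scn2a rose by 1.77 log2 units with a standard error of 0.16 (limma, adjusted p = 9.2e-06), to 3.42 times the wild-type level, and by 1.65 without wild-type mouse 3. Knock-out values all above wild-type values were found for 7.45% of the tested genes.

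Markers of neurons, where Scn2a is known, did not share a direction. Of 9 neuron genes, 6 lay below the expression limit (Nefl, Nefm, Nefh, Snap25, Syt1 and Elavl4). Of the other 3, Stmn2, a tubulin-binding protein of growing axons, fell by 0.66. Prph, which encodes the intermediate filament protein peripherin, rose by 0.65, and Uchl1, a ubiquitin hydrolase, rose by 1.17 (limma). The summed level of the 9 genes ranged from 1196 to 1575 in knock-out and from 484 to 1169 in wild-type mice. Most of this sum was Uchl1, with a mean rlog value of 10.26 in knock-out and 9.09 in wild-type mice. The means were 6.32 and 6.97 for Stmn2 and 4.15 and 3.499 for Prph, in the same order. The sum thus mainly shows Uchl1 and not the markers as a set. The part of nerve in the rise of Scn2a was not tested.

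Scn3a, a channel gene of the developing nervous system, lies next to Scn2a on the opposite strand, from 65457118 to 65567627 on chromosome 2. It ranged from 4.58 to 5.40 in wild-type and from 5.33 to 5.90 in knock-out mice, and 4 of 5 knock-out mice lay above all wild-type mice. Scn3a rose by 0.57 log2 units with a standard error of 0.17 (limma, adjusted p = 0.0377). An antisense gene, Gm13595, overlaps it, so reads of this overlap cannot be assigned with certainty either. The call was lost without 1 mouse in 5 of 10 cases, with adjusted p up to 0.0973 (limma).

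The 6 genes under the expression limit were Scn1a, Scn8a, Scn9a, Scn10a, Scn11a and Nalcn.

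**Figure D2:**
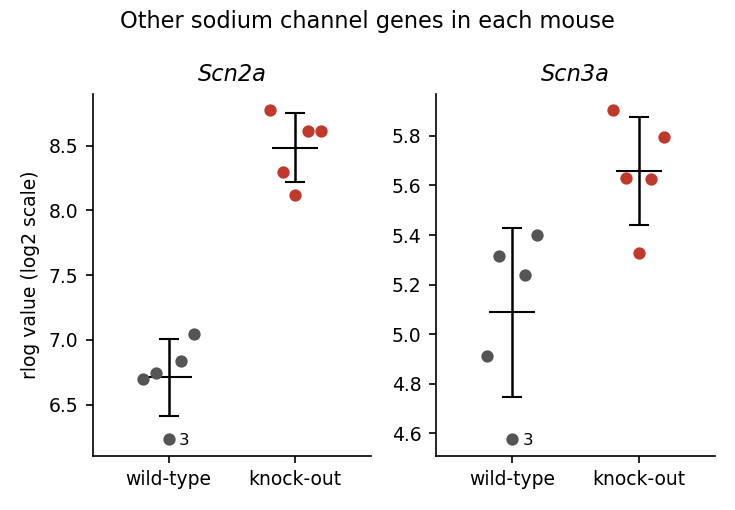
rlog values (log2 scale) of Scn2a and Scn3a in wild-type (grey) and desmin knock-out (red) mice, each point being 1 mouse and the bars the mean ± SD of 5 mice, with wild-type mouse 3 marked and a separate scale for each gene. Scn2a is separated (6.23 to 7.05 against 8.12 to 8.77), and Scn3a overlaps by 1 knock-out mouse.

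**Figure D3:**
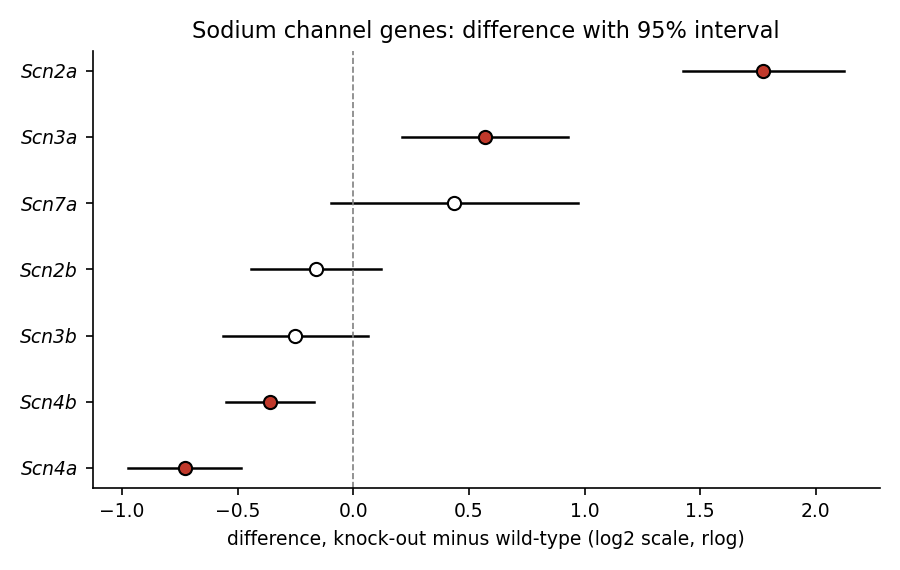
Difference between knock-out and wild-type means (log2 scale, rlog) of 7 sodium channel genes with the 95% interval of limma, red points having an adjusted p under 0.05. Differences run from -0.73 for Scn4a to 1.77 for Scn2a.

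Scn2a, Scn3a and Scn7a belong to a cluster of α subunit genes that spans 1.33 Mb of chromosome 2, from 65457118 to 66784914. Scn1a and Scn9a, which lie in it as well, were below the expression limit. Only 1 other gene of the stretch was tested, Ttc21b, a gene of the cilium, with a difference of -0.18 (limma, adjusted p = 0.365). Within the cluster, Scn2a and Scn3a rose and Scn7a did not pass.

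To compare genes with each other, levels were taken per length, as 2 to the power of the rlog value per kb of annotated exon. Of the 7 genes described, Scn4b had the highest level per kb in wild-type muscle with 2951 ± 233 (SD, n = 5), before Scn4a with 1710 ± 315 (SD, n = 5). The ranges of this pair did not overlap in wild-type mice. Far below followed Scn7a (29.1), Scn3b (12.4), Scn2a (8.36), Scn2b (7.02) and Scn3a (2.79), as mean levels per kb. Among these, Scn7a and Scn3b overlapped in range, as did Scn2a and Scn2b. In knock-out muscle Scn2a had a mean level per kb of 28.5 and stood above Scn3b (10.4) and below Scn7a (36.7), and the ranges of Scn2a (21.9 to 34.4) and Scn7a (32.3 to 41.0) overlapped.

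On this per-kb scale, Scn4a made up 97.6% ± 0.93 (SD, n = 5) of the summed level of Scn4a, Scn7a, Scn2a and Scn3a in wild-type muscle. In desmin knock-out muscle it made up 93.6% ± 0.57 (SD, n = 5). Its share ranged from 96.7% to 99.1% in wild-type and from 92.9% to 94.4% in knock-out mice. The share of Scn2a was 0.496% ± 0.14 (SD, n = 5), against 2.62% ± 0.52 (SD, n = 5) without desmin. The summed level of these 4 α subunit genes per kb ranged from 1494 to 2278 in wild-type and from 1057 to 1122 in knock-out mice, with Scn4a as its main part in every mouse. Since rlog draws low genes towards their mean, these shares are descriptions on this scale and were not tested.

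**Figure D4:**
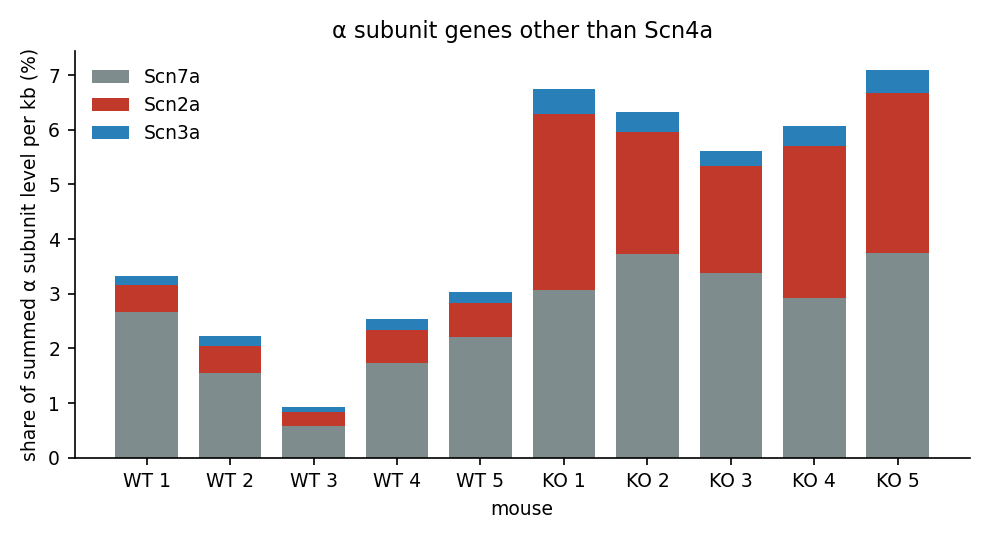
Share (%) of Scn7a, Scn2a and Scn3a in their summed level per kb with Scn4a, for each wild-type (WT) and desmin knock-out (KO) mouse, the remainder being Scn4a. Scn2a takes 0.259% to 0.616% in wild-type and 1.95% to 3.23% in knock-out mice, and wild-type mouse 3 has the lowest bar.

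Genes whose proteins anchor, modify or cleave the channel were read from a list of 27, of which 23 were tested. Of these, 2 rose and 5 fell (limma, adjusted p under 0.05), against 7.70% and 5.99% of all tested genes, and the median difference was -0.093. When wild-type mouse 3 was left out, 3 rose and 6 fell, with a median of -0.049. Among the anchors, Ank3, which encodes the ankyrin that clusters sodium channels in the membrane, rose by 0.37 (limma, adjusted p = 0.023). Ank1, an ankyrin also known from the sarcoplasmic reticulum, fell by 0.43 (limma, adjusted p = 0.0082). Sntb1, a syntrophin of the dystrophin complex, fell by 0.84 (limma, adjusted p = 0.00137).

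Among genes that act on the channel, the calmodulin gene Calm3 fell by 0.59, whereas Calm2 had a difference of -0.18 that did not pass (limma, adjusted p = 0.304). Bace1, whose protease cleaves β subunits, fell by 0.45, and all 5 knock-out mice lay below the wild-type mice. Sgk1, a kinase that opposes removal of sodium channels from the membrane, fell by 0.56 with an adjusted p of 0.0411 (limma), a call that was lost in 10 of 18 alternatives. Nedd4 and Nedd4l, the ubiquitin ligases of that removal, had differences of -0.077 and -0.093. Nrcam, an adhesion molecule that binds β subunits where channels are clustered, rose by 1.29 with a standard error of 0.12 (limma, adjusted p = 1.1e-05), from 5.12 to 5.56 in wild-type to 6.43 to 6.76 in knock-out mice. The call of Ank3 was lost in 5 of 18 alternatives and that of Ank1 after quantile normalization (difference -0.26, limma, adjusted p = 0.0587).

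Channels and pumps that shape the muscle action potential beside the sodium channel formed a list of 13, all tested, of which 3 rose and 2 fell (limma), against 7.70% and 5.99% of all tested genes. Their median was 0.0075, and without wild-type mouse 3 it was 0.081, with 4 risers and 2 fallers. Clcn1, the chloride channel that sets the resting conductance of the fiber, fell by 0.36 (limma, adjusted p = 0.00765), with knock-out values up to 12.42 below wild-type values from 12.60 to 12.72. Kcnj12, an inward rectifier potassium channel, fell by 0.43 (limma, adjusted p = 0.0227), a call lost in 5 of 18 alternatives. The risers were Kcnn3 (2.10), a small-conductance calcium-activated potassium channel known from denervated muscle, Atp1b1 (0.74), a sodium pump subunit, and Kcnc1 (0.41), a voltage-gated potassium channel. Cacna1s, the voltage sensor of the triad, had a difference of -0.37 that did not pass (limma, adjusted p = 0.308).

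Since sodium channels are known to differ between fast and slow and between mature and immature fibers, lists of genes of such fibers are given beside them. Of 12 fast fiber genes, all tested, 0 rose and 3 fell, with a median difference of -0.44 (limma), where 7.70% of all tested genes rose and 5.99% fell. Without wild-type mouse 3, 1 rose and 3 fell, with a median of -0.30. The fallers were Mybpc2 (-1.05), the fast myosin-binding protein C, Actn3 (-0.97), the fast actinin, and Myh4 (-0.71), the myosin of the fastest fibers. Myh4 lost its call in 12 of 18 alternatives and Actn3 in 3 of 18, and without knock-out mouse 4, or without knock-out mouse 5, only 1 fast gene of the list fell. Of 10 slow fiber genes, 3 rose and 1 fell, the risers being Tnnt1 (1.70), Csrp3 (1.49) and Tnni1 (0.91) and the faller Myl3 (-0.998). The median of the slow genes was 0.20, and without wild-type mouse 3 it was 0.34, with 4 risers and 1 faller. Of 10 genes of immature or denervated fibers, 8 rose and 0 fell (limma), with a median of 0.98, among them Myh3 (2.25), the embryonic myosin, Runx1 (1.79) and Myog (1.23), which encodes myogenin. Musk, the receptor kinase of the NMJ, had a difference of -0.49 that did not pass (limma, adjusted p = 0.107). Without wild-type mouse 3, 9 genes of this list rose and 1, Musk, fell, with a median of 0.97. The part of these fiber changes in the sodium channel values was not tested.

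**Figure D5:**
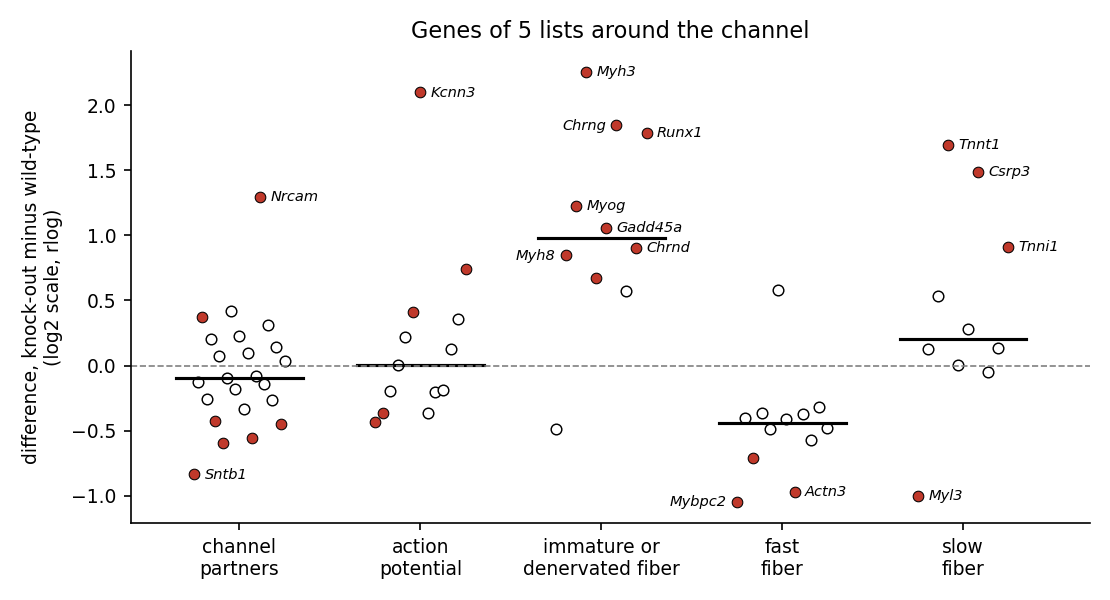
Difference between knock-out and wild-type means (log2 scale, rlog) of the tested genes of 5 lists, each point being 1 gene, red points having an adjusted p under 0.05 (limma) and the bar the median of the list. Medians are -0.093 for channel partners, 0.0075 for action potential genes, 0.98 for immature or denervated fiber genes, -0.44 for fast and 0.20 for slow fiber genes. Without wild-type mouse 3 they are -0.049, 0.081, 0.97, -0.30 and 0.34 in the same order.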

How the data were processed

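RNA of calf muscle (gastrocnemius per the labels) of 5 desmin knock-out and 5 wild-type mice was read from 1 table deposited by the authors, whose 10 sample columns were all used. Per the labels, reads were trimmed with cutadapt 2.5, aligned with STAR 2.5.4a to GRCm38 and counted with featureCounts (Subread 1.6.1). The authors deposited regularized log (rlog) values from DESeq2, which are on a log2 scale. Counts, depth and counting error are unknown from them, so no count test was possible.

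The expression limit was a mean rlog value of log2(10), which 14289 genes reached. These were fitted in R 4.3.3 by limma 3.58.1 (lmFit, then eBayes with the trend option), and two-sided p-values were adjusted over all of them after Benjamini and Hochberg. Pairs of genes were compared with exact permutation tests. Symbols and positions came from GENCODE M21 (54165 of 54232 genes), and promoters from RefSeq (GRCm38.p6). Lengths are the union of annotated exons. The limma step was tested on simulated data.

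Some genes of the lists are not reported here. The subunit genes, gene lists and tests were chosen with earlier results of these data known. The text names the 5 subunit genes, Des, other sodium channel genes, genes of the lists with those that passed first, and for Scn4a and Scn4b the 3 genes with the most similar deviations. Alternatives were quantile normalization, median centring, sample weights, eBayes without the trend, no limit or a limit of log2(50), a covariate made from 4 Y-linked transcripts, a block for the replicate number, leaving out each mouse, and an adjusted p under 0.01.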

Additional observations from a re-analysis of the deposited data

Results flagged for a closer look

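The 7 sodium channel genes described give 14 groups of 5 mice, and in 1 of them a single value stood far from the rest, which happens by chance in about 1 of 20 groups. It was Scn4a in wild-type mouse 3, with an rlog value of 13.96, while the other wild-type mice ranged from 13.32 to 13.50. This is the mouse whose summed values were 1.48 times the median. Without it, Scn4a had a log2 difference of -0.62 with an adjusted p of 2.2e-05 (limma).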

How the results depend on the processing

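Scn4a fell in all 18 alternatives of the fit (differences from -0.78 to -0.62, adjusted p from 4.2e-07 to 0.00344, limma). Scn4b kept its direction but not its call after quantile normalization (-0.27, adjusted p = 0.0576) and with the replicate number as a block (-0.36, adjusted p = 0.061), and kept both in the other 16 (limma). Accordingly 1 of the 5 subunit genes fell, instead of 2, after quantile normalization, with the replicate block and at an adjusted p under 0.01. Scn7a, Scn2b and Scn3b passed in 0 of their alternatives (limma, lowest adjusted p 0.108, 0.222 and 0.188), and their unadjusted p was 0.101, 0.233 and 0.107. Scn2b was left out by the limit of log2(50). With 1 mouse left out, 2 subunit genes fell in each of the 10 cases. The count of changed genes was 1956, moved to 4220 with sample weights and 994 at an adjusted p under 0.01, and ranged from 1400 to 2496 with 1 mouse left out. Scn2a rose in all 18 alternatives, while Scn3a lost its call in 7 of 17. The cause was not tested. Deviations of mice with the same number correlated between -0.22 and 0.067, so the numbers were not taken as pairs, and the replicate block gave 1579 changed genes. Depth is unknown from rlog values, and 5 mice a group left Scn2b and Scn3b with intervals that include no difference.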

Other observations

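Nalcn, which encodes a sodium leak channel related to the α subunits, lay below the expression limit. Its rlog values ranged from 2.81 to 3.18 in knock-out and from 2.47 to 2.73 in wild-type mice, without overlap, and without an expression limit its difference was 0.31 (limma, adjusted p = 0.112). Scn8a, a channel gene of neurons, ranged from 1.31 to 1.52 in knock-out and from 1.26 to 1.71 in wild-type mice.

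The genes whose deviations from their genotype means most resembled those of Scn4a, over 10 mice and out of the 11491 genes whose mean reached log2(50), were Slc25a51 (Pearson r = 0.98), Slc35e1 (0.98) and Smtnl1 (0.98). Of these, Smtnl1, a smoothelin-like gene of muscle, rose between the genotypes by 1.13, against the direction of Scn4a (limma, adjusted p = 4.8e-04). Without wild-type mouse 3 other genes led, namely Nubpl (0.96), Cdr2 (0.93) and Cdc42bpa (0.93) over 9 mice. For Scn4b the leading genes were Nqo2 (0.97), Magix (0.96) and Slc2a12 (0.95) over 10 mice and Sept6, Lipa and Ndst1 (each 0.98) over 9. These are the highest values of many genes over few mice and were not tested.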
